A study of Homo sapiens with 4 samples.

Results

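Notch receptors, their ligands and their target genes were followed across 4 arrays of MDA-MB231 cells, a human breast cancer line of mesenchymal character. The set was fixed as 10 genes: the receptors NOTCH1, NOTCH2 and NOTCH3, the ligands JAG1, JAG2 and DLL1, the sugar transferase LFNG, the coactivator MAML1, and the target genes HES1 and HEY1. All probe sets for which the platform's gene table names one of these genes and no other were taken. A probe set is a group of short probes read as 1 value. This gave 20 of the 22277 probe sets on the array, for 9 of the 10 genes; no such probe set was listed for DLL1, which is not analysed here. Of the 20, 14 lay above the background floor on all 4 arrays, 5 on 1 to 3 arrays and 1 on none.

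The Affymetrix arrays held total RNA of 4 cultures, each kept for 30 h in its medium: PIAS1 shRNA2 cells in SCM, control shRNA cells in SCM, PIAS1 shRNA2 cells in DMEM and control shRNA cells in DMEM. PIAS1 is a SUMO ligase and repressor of transcription. SCM is a serum-free stem cell medium with EGF, basic FGF and insulin, and DMEM here contained 10% FBS. Both shRNAs were expressed from a lentivirus under the U6 promoter in puromycin-selected lines, 1 line per shRNA and 1 array per condition. The effect of PIAS1 loss therefore cannot be told apart from any other difference between the lines, the arrays of 1 line in both media are not replicates, and no ratio below carries a p-value.

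Notch is a receptor that is cut when a ligand of the Jagged or Delta-like family on a neighbouring cell binds it. ADAM proteases and then gamma-secretase release its intracellular part, which enters the nucleus, joins the DNA-binding protein RBPJ and a Mastermind coactivator, and turns on genes of the HES and HEY families of repressors. In the mammary gland the pathway acts in stem and progenitor cells, and JAG1 has been linked to aggressive breast cancer.

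The values deposited by the authors are MAS5 signals, array intensities on a linear scale. Their mean without the lowest and highest 2% was 2499 on each array. A floor for low signals came from 51 probe sets for 41 genes that belong to tissues such as lens and pancreas: their 75th percentile was highest in control shRNA cells in SCM, at 170.1, and signals below it were raised to it before a ratio was taken. A ratio with its dimmer signal under the floor is a bound. PIAS1 itself, on the brightest of its probe sets, read 671 in PIAS1 shRNA2 and 1814 in control shRNA cells in SCM, and 512 and 1383 in DMEM, or 37.0% of control in each medium. Its other probe sets gave 31.5% and 77.9% of control in SCM, and in DMEM 23.8% on the first of them, while the second was at least 4.02-fold lower there, so the size of the knockdown in SCM depended on the probe set. VIM, CD44, CAV1, AXL and ANXA1, which MDA-MB231 cells express, were above the floor on all arrays, while the luminal genes PGR, FOXA1 and CDH1 were under it on all. The luminal gene GATA3 read 1718 in PIAS1 shRNA2 and 3103 in control shRNA cells in SCM and 4765 and 6040 in DMEM. In the same order ESR1, the estrogen receptor that this line is held to lack, read 357 and 706 in SCM and 206 and 216 in DMEM. Each marker was read from its brightest probe set alone. The study itself named ESR1 among genes induced by PIAS1 knockdown, from its microarrays of these conditions and from Q-PCR. Its Q-PCR did not detect ESR1 in control shRNA cells, unlike this probe set. No other ESR1 probe set was read here, so these signals do not settle the direction of ESR1 on the arrays. Of the leukocyte genes, PTPRC was under the floor on all arrays and CD3E above it on 2, and of 3 fibroblast genes COL1A1 alone was above it on all. PECAM1, a marker of endothelium, read 3297 in PIAS1 shRNA2 and 2188 in control shRNA cells in SCM against 219 and 339 in DMEM, but the endothelial genes CDH5 and VWF were under the floor on all 4 arrays. The 3′ signal of ACTB over its 5′ signal, which tracks RNA integrity, was 1.11 in PIAS1 shRNA2 and 1.07 in control shRNA cells in SCM against 0.946 and 0.982 in DMEM. Whether PECAM1 or RNA integrity had a part in the differences between media was not tested.

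HES1 is the textbook target of the pathway, and its promoter is shown because 2 copies of the core letters that RBPJ binds stand in it. The JAG1 promoter is shown beside it as that of the ligand with the largest difference between the shRNAs. Both run from 250 bases before the start site to 50 after it, from RefSeq on GRCh38.p14, HES1 at chr3:194135898-194136197 on the plus strand and JAG1 at chr20:10673950-10674249 on the minus strand. Capitals mark the letters TGGGAA (the RBPJ core), CACGCG (a site bound by HES and HEY proteins) and CACNAG (the N box bound by HES1), each searched on both strands.
HES1: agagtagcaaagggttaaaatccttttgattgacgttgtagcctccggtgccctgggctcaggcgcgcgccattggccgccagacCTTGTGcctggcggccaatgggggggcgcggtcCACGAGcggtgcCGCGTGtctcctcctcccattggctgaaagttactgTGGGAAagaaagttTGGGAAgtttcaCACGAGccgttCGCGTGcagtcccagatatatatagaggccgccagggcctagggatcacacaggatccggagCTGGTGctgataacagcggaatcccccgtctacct
JAG1: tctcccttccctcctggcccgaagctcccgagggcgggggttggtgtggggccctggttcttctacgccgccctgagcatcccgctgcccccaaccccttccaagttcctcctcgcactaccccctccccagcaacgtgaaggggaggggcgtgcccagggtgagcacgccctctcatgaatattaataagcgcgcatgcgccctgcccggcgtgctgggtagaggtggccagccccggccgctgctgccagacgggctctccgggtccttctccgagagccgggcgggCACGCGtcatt

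In the HES1 window the RBPJ core began 84 and 70 bases before the start site, in the same orientation, and the window also held 2 matches to CACGCG and 4 to CACNAG, none of which overlapped another. The JAG1 window held 1 CACGCG, beginning at base 40 of the transcript, and no RBPJ core. Windows of 8 of the genes were searched, with 2 windows for LFNG, and any window of the set on chromosome 8 was left out. Those of HEY1 and DLL1 are not analysed here. The RBPJ core was in 3 of these 9 windows, HES1 and both of LFNG, so LFNG counts 2 times, against 24.0% of all 35116 promoter windows. Of all windows, 3.80% held it 2 times or more, as HES1 did. The HES1 window was chosen for printing because of its 2 copies, so that share is a description only. CACGCG was in 3 of the 9 (HES1, JAG1 and JAG2) against 11.4%, and CACNAG in 6 of the 9 against 38.0%. A match is a description of letters and does not show that a protein binds there.

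JAG1, HES1 and HEY1 were higher in PIAS1 shRNA2 than in control shRNA cells in both media. NOTCH1, NOTCH2, JAG2, LFNG and MAML1 had log2 ratios between -0.26 and 0.02 in SCM. In DMEM these genes read higher in PIAS1 shRNA2 cells, from 0.17 for NOTCH1 to a bound of 0.56 for LFNG. The median size of a log2 ratio over all genes above the floor there was 0.19, so the lowest of these were of ordinary size. With a stricter floor of 329 both LFNG signals in DMEM were under it and gave no ratio. Where a gene had several probe sets, the brightest on average (mean of log2 signals) was counted. In SCM, 2 of the 9 genes, HES1 and HEY1, were at least 2-fold higher in PIAS1 shRNA2 cells, against 2.28% of the 9468 genes above the floor in at least 1 of these arrays. None was at least 2-fold lower, against 1.71% of those genes. In DMEM, 1 of the 8 genes above the floor, JAG1, was at least 2-fold higher against 1.7% of 9144 genes, and none was at least 2-fold lower against 0.984%. NOTCH3, under the floor in DMEM, could show no difference there. RNA was taken from whole cultures, so more cells with a transcript and more of it per cell cannot be told apart.

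**Figure D1:**
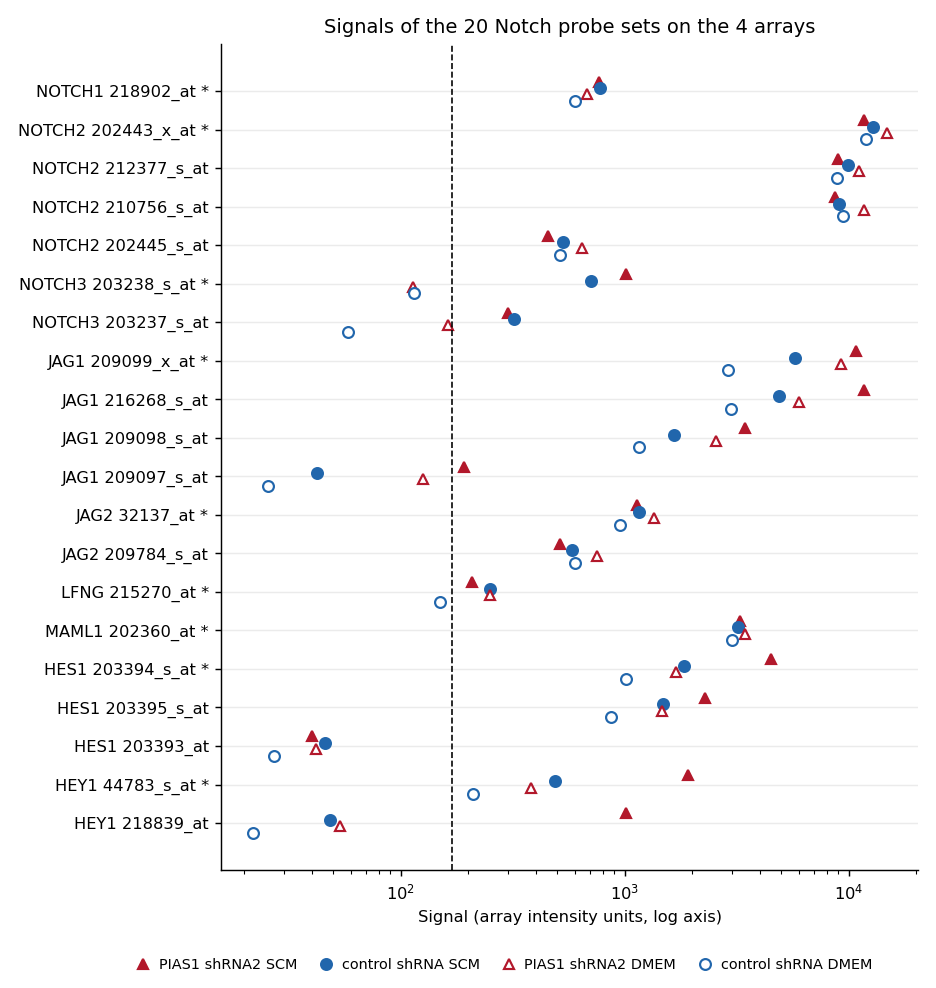
Signal (x axis, array intensity units, log axis) of each of the 20 probe sets (y axis; an asterisk marks the one read for its gene) on the 4 arrays. Triangles are PIAS1 shRNA2 and circles control shRNA cells, filled in SCM and open in DMEM; the dashed line is the floor of 170.1. The triangles of JAG1 lie to the right of the circles of the same medium on the 3 probe sets above the floor, and the filled triangles of HEY1 lie far to the right of its other points.

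The medium was the other axis of the design. In control shRNA cells, 2 of the 9 genes, NOTCH3 and HEY1, were at least 2-fold higher in SCM than in DMEM, and in PIAS1 shRNA2 cells 3 were, NOTCH3, HES1 and HEY1. Many genes differed by medium: 10.9% of 9331 genes were at least 2-fold higher in control shRNA cells and 11% of 9450 in PIAS1 shRNA2 cells. None of the 9 was at least 2-fold lower in SCM in either line, against 10.6% and 10.4% of those genes.

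NOTCH1, the first receptor, lay between 601 and 779 on all arrays. Its 1 probe set read 764 in PIAS1 shRNA2 and 779 in control shRNA cells in SCM, and 677 and 601 in DMEM. The log2 ratio between the shRNAs, PIAS1 shRNA2 over control, was -0.03 in SCM and 0.17 in DMEM. Of the genes above the floor in DMEM, 29.1% had a ratio at least as high as that of NOTCH1.

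NOTCH2 gave the same small pattern on all 4 of its probe sets. On the brightest, NOTCH2 read 11758 in PIAS1 shRNA2 and 12854 in control shRNA cells in SCM, and 14787 and 12002 in DMEM. Over the 4 probe sets the log2 ratio of NOTCH2 lay between -0.23 and -0.06 in SCM and between 0.30 and 0.33 in DMEM. The array may not separate NOTCH2 from the NOTCH2NL genes, partial copies of it, as the probe set read for the gene carries the suffix _x_at, which marks probes that may match related transcripts.

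NOTCH3 was the receptor that differed with the medium. On its brighter probe set NOTCH3 read 1011 in PIAS1 shRNA2 and 704 in control shRNA cells in SCM, and 113 and 114 in DMEM. Both SCM signals were above the floor and both DMEM signals under it. NOTCH3 was thus at least 5.95-fold higher in SCM than in DMEM in PIAS1 shRNA2 cells and at least 4.14-fold higher in control shRNA cells. These bounds follow the floor. With a floor of 329 the log2 ratio of NOTCH3 was at least 1.62 in PIAS1 shRNA2 and 1.10 in control shRNA cells. With the array median as floor it was at least 0.74 and 0.22. These last bounds do not reach 2-fold, but they do not show a difference under 2-fold. The other NOTCH3 probe set read 302 in PIAS1 shRNA2 and 320 in control shRNA cells in SCM and 162 and 58.4 in DMEM, at least 1.78-fold higher in SCM for PIAS1 shRNA2 and 1.88-fold for control shRNA. Between the shRNAs in SCM, NOTCH3 had a log2 ratio of 0.52 on the first probe set and -0.08 on the other, so the probe sets gave no common direction.

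JAG1, a ligand that activates Notch on adjacent cells, was higher in PIAS1 shRNA2 cells in both media on the 3 of its 4 probe sets that lay above the floor. The probe set read for the gene gave 10766 in PIAS1 shRNA2 and 5760 in control shRNA cells in SCM, 1.87-fold higher, and 9228 and 2906 in DMEM, 3.18-fold higher. In DMEM, only 16 of 9144 genes, JAG1 included, had a ratio as high as on this probe set, which gave the highest JAG1 ratio of the 3 there. A further JAG1 probe set read 11708 in PIAS1 shRNA2 and 4893 in control shRNA cells in SCM, 2.39-fold higher, and 5998 and 2975 in DMEM, 2.02-fold higher. A JAG1 probe set that was dimmer read 3455 in PIAS1 shRNA2 and 1668 in control shRNA cells in SCM, 2.07-fold higher, and 2548 and 1161 in DMEM, 2.19-fold higher. The last read 191 in PIAS1 shRNA2 and 42.1 in control shRNA cells in SCM and 126 and 25.5 in DMEM, with only the first of these above the floor.

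Whether the JAG1 ratio was larger in SCM or in DMEM depended on the probe set. As SCM minus DMEM, the log2 ratios differed by -0.76 on the brightest JAG1 probe set, which has the suffix _x_at, 0.25 on the next and -0.08 on the dimmest of the 3. The medium itself went with higher JAG1 in SCM in both lines: on these 3 probe sets SCM was 1.17-fold, 1.95-fold and 1.36-fold above DMEM in PIAS1 shRNA2 cells and 1.98-fold, 1.64-fold and 1.44-fold above it in control shRNA cells. On these 3 the control shRNA array in DMEM held the lowest JAG1 signal and the PIAS1 shRNA2 array in SCM the highest.

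JAG2, the other Jagged ligand, had no common direction in the media. On the probe set read for the gene JAG2 gave 1129 in PIAS1 shRNA2 and 1162 in control shRNA cells in SCM, and 1345 and 949 in DMEM. Its log2 ratio was -0.04 in SCM and 0.50 in DMEM, and on the other JAG2 probe set -0.18 and 0.33. LFNG, a Fringe glycosyltransferase that shifts the response of Notch from Jagged towards Delta-like ligands, was close to the floor, with 208 in PIAS1 shRNA2 and 249 in control shRNA cells in SCM and 252 and 150 in DMEM. MAML1, the Mastermind coactivator of the Notch and RBPJ complex, read 3263 in PIAS1 shRNA2 and 3210 in control shRNA cells in SCM and 3452 and 3002 in DMEM, and its log2 ratio was 0.02 in SCM and 0.20 in DMEM.

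HES1, a repressor of the basic helix-loop-helix class, was higher in PIAS1 shRNA2 cells on both of its probe sets above the floor. On the brighter one HES1 read 4510 in PIAS1 shRNA2 and 1838 in control shRNA cells in SCM, 2.45-fold higher, and 1689 and 1014 in DMEM, 1.67-fold higher. In SCM 1.18% of genes had a ratio at least as high as HES1 on this probe set, the higher of its ratios there. The other HES1 probe set read 2278 in PIAS1 shRNA2 and 1486 in control shRNA cells in SCM, 1.53-fold higher, and 1466 and 872 in DMEM, 1.68-fold higher. In DMEM the probe sets differed little, with log2 ratios of 0.74 and 0.75, whereas in SCM they were 1.30 and 0.62. The remaining HES1 probe set stayed between 27.3 and 46.0 on all arrays, under the floor, and gives no ratio.

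The HES1 difference by medium had the same split. HES1 was 2.67-fold higher in SCM than in DMEM in PIAS1 shRNA2 cells and 1.81-fold higher in control shRNA cells on the brighter probe set, and 1.55-fold and 1.70-fold higher on the other. On both, the array of control shRNA cells in DMEM was the lowest and that of PIAS1 shRNA2 cells in SCM the highest, with the remaining pair close together: 1689 and 1838 on the brighter HES1 probe set, and 1466 and 1486 on the other, in the order PIAS1 shRNA2 in DMEM and control shRNA in SCM.

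HEY1, the HES-related repressor, had the largest ratio of the 9 genes in SCM. On the probe set read for the gene HEY1 gave 1922 in PIAS1 shRNA2 and 489 in control shRNA cells in SCM, 3.93-fold higher, and 384 and 210 in DMEM, 1.83-fold higher. Only 21 of 9468 genes, HEY1 included, had a ratio as high in SCM, and 2.83% did in DMEM. The other HEY1 probe set read 1009 and 48.5 in SCM and 53.4 and 21.9 in DMEM, so it exceeded the floor in PIAS1 shRNA2 cells in SCM alone, where it was at least 5.93-fold above control shRNA cells. HEY1 in SCM was 5.01-fold above DMEM in PIAS1 shRNA2 cells and 2.33-fold above it in control shRNA cells. The HEY1 value of control shRNA cells, a log2 ratio of 1.22, rests on a DMEM signal close to the floor. With a floor of 329 that ratio became a bound of at least 0.57. With the array median as floor both signals were under it and gave no ratio. The log2 ratio was 0.98 after quantile normalization and 0.61 with the mean of probe sets, both under 2-fold. That mean takes in the dimmer probe set, which was under the floor on both arrays. The log2 ratio between the shRNAs was 1.10 larger in SCM than in DMEM, a difference that with 1 array per condition was not tested. The DMEM ratio in it rests on the same signal close to the floor. That log2 ratio of HEY1, 0.87, became a bound of at least 0.22 with a floor of 329. It was 0.44 with the mean of probe sets.

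**Figure D2:**
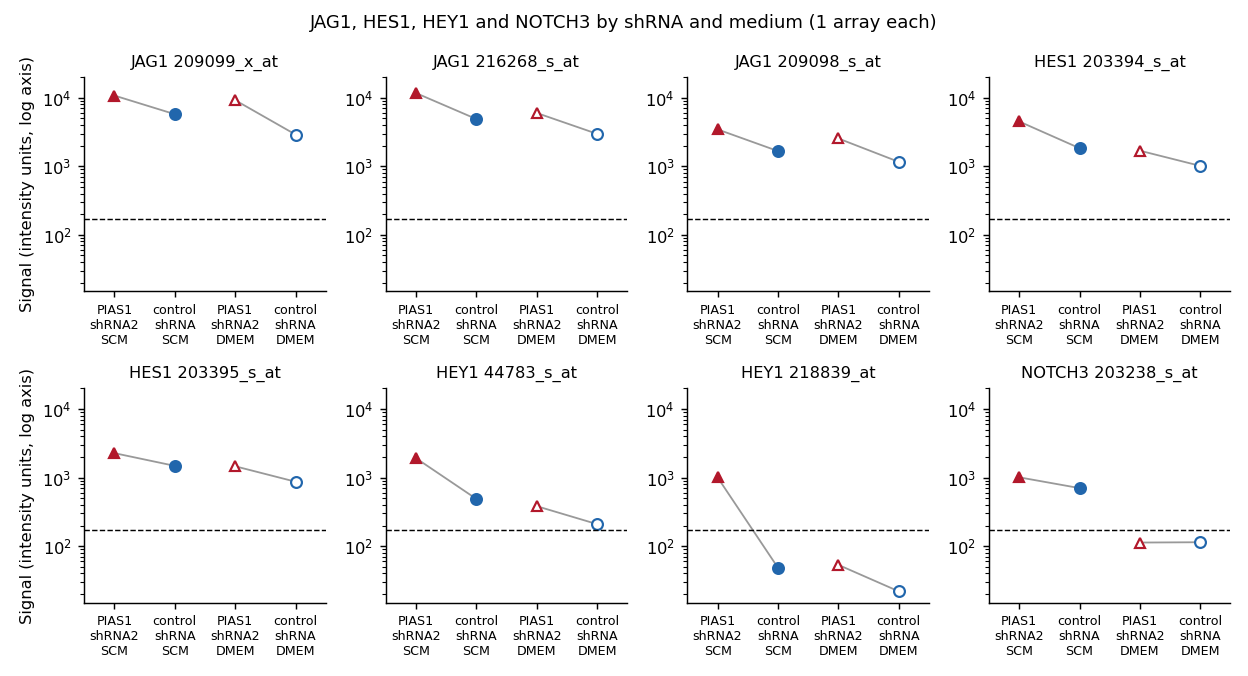
Signal (y axis, array intensity units, log axis) of 8 probe sets of JAG1, HES1, HEY1 and NOTCH3 in the 4 conditions (x axis), 1 array each; grey lines join the shRNAs within a medium and the dashed line is the floor of 170.1. Within each medium the PIAS1 shRNA2 point of JAG1, HES1 and HEY1 is the higher one, though in DMEM 1 HEY1 probe set is under the floor, and NOTCH3 lies above the floor in SCM only.

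Probe sets of 1 gene gave a measure of how well such ratios repeat within an array pair. Over 2667 genes with at least 2 probe sets above the floor on all arrays, the lowest and highest log2 ratio of a gene lay a median of 0.26 apart in SCM and in DMEM, and 1 gene in 10 lay further apart than 0.75 in SCM and 0.74 in DMEM. The 2 HES1 probe sets lay within this range in both media. The lowest log2 ratio of JAG1 over its 3 probe sets above the floor was 0.90 in SCM and 1.01 in DMEM. This spread covers probe differences only and leaves out that between cultures.

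**Figure D3:**
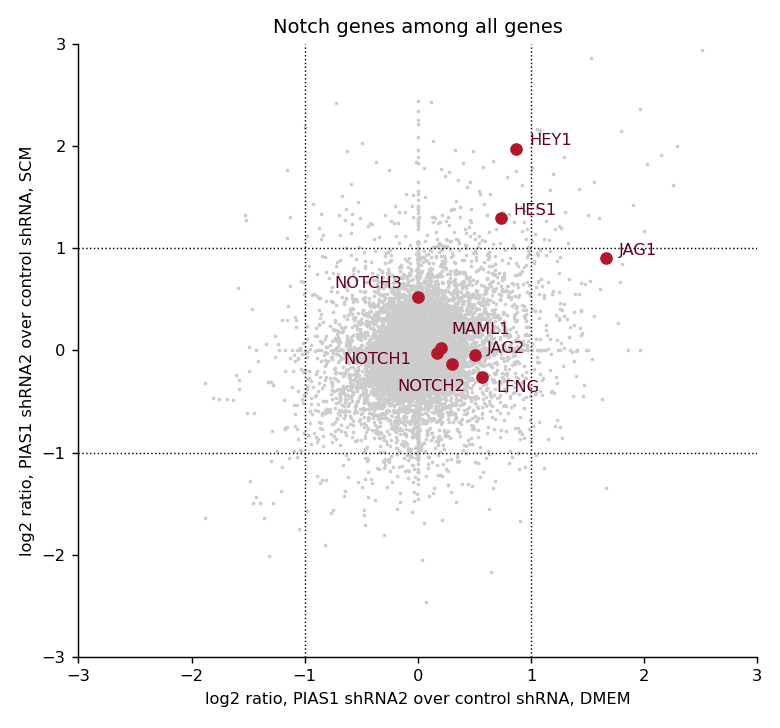
Log2 ratio between the shRNAs, PIAS1 shRNA2 over control, for DMEM (x axis) and SCM (y axis), for all 11963 genes (grey, 2 lie outside the axes) and the 9 Notch genes (red), after low signals were raised to the floor; dotted lines mark 2-fold. HEY1 and HES1 lie above the 2-fold line in SCM and JAG1 beyond it in DMEM, and NOTCH3 has 0 in DMEM because both its signals were under the floor.

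In DMEM all 8 genes above the floor had a ratio over 1, as did 4729 of 9144 genes in all, with a median log2 ratio of 0.53 against 0.01 over all genes, and in control shRNA cells all 9 were higher in SCM than in DMEM, as were 4879 of 9331 genes in all, with a median of 0.55 against 0.04. These comparisons share the array of control shRNA cells in DMEM. Its median signal was 569, against 591 for PIAS1 shRNA2 cells in DMEM and 605 on each SCM array. With the arrays scaled to a common median, the log2 ratios of the 8 genes in DMEM lay between 0.12 for NOTCH1 and 1.61 for JAG1. Those of the 9 genes in control shRNA cells then lay between 0.0067 for MAML1 and 2.05 for NOTCH3. Whether a low reading of these genes on that array raised both comparisons was not tested. In the comparisons without that array the genes were divided: 5 were higher and 4 lower in PIAS1 shRNA2 cells in SCM, with a median of 0.02 against 0.00, and 5 were higher and 4 lower in SCM in PIAS1 shRNA2 cells, with a median of 0.17 against -0.01.

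Of the Notch genes above the floor on all arrays, HEY1 had the widest span of signals. The genes whose log2 signals ran most like those of HEY1 over the 4 arrays, among 7778 genes and after each was centred on its mean, were SERPINE2, LIPG and RGS2, with root mean square distances of 0.09, 0.13 and 0.18. SERPINE2, a serine protease inhibitor, read 12109 in PIAS1 shRNA2 and 3360 in control shRNA cells in SCM and 2434 and 1536 in DMEM. With 4 points many genes can run alike, and this likeness is a description only.

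The rest of the pathway was taken from a list of 61 further genes, of which 47 were measured and 14 are not analysed here. In SCM, 1 of the 42 above the floor was at least 2-fold higher in PIAS1 shRNA2 cells and none was lower by as much, with a median log2 ratio of 0.02, and over all genes 2.28% were higher and 1.71% lower. In DMEM, 1 of 41 was higher and none lower, with a median of 0.10, against 1.7% and 0.984% of all genes. These counts are near the share over all genes. The gene higher in SCM was POGLUT1, which puts O-glucose on Notch: it read 832 in PIAS1 shRNA2 and 326 in control shRNA cells in SCM, 2.56-fold higher, and 1000 and 1080 in DMEM. The low reading of POGLUT1 was that of control shRNA cells in SCM. The gene higher in DMEM was DTX4, a Deltex ubiquitin ligase, with 372 in PIAS1 shRNA2 and 136 in control shRNA cells, at least 2.19-fold higher, and with 317 and 276 in SCM.

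Of the 8 proteases and gamma-secretase subunits, all above the floor, none was 2-fold different between the shRNAs. NOTCH4, the remaining receptor, read 442 in PIAS1 shRNA2 and 448 in control shRNA cells in SCM and 433 and 397 in DMEM. The first protease, ADAM10, read 20593 in PIAS1 shRNA2 and 23079 in control shRNA cells in SCM and 20192 and 18129 in DMEM. ADAM17, a related protease, read 6786 in PIAS1 shRNA2 and 4006 in control shRNA cells in SCM and 3036 and 2307 in DMEM, with log2 ratios of 0.76 and 0.40. The 8 had log2 ratios from -0.28 to 0.76 in SCM and from -0.51 to 0.40 in DMEM. NCSTN, the gamma-secretase subunit nicastrin, read 9709 in PIAS1 shRNA2 and 8952 in control shRNA cells in SCM and 6226 and 5236 in DMEM. RBPJ, the DNA-binding partner of Notch, read 16533 in PIAS1 shRNA2 and 18940 in control shRNA cells in SCM and 10493 and 11345 in DMEM, and its log2 ratio was -0.20 and -0.11. Corepressors lay between -0.57 for TLE2 and 0.75 for the deacetylase HDAC1 in SCM and between -0.32 and 0.29 in DMEM. SPEN, a corepressor that binds RBPJ, was 2.06-fold higher in DMEM on its dimmer probe set and 1.09-fold on the one read for it. AAK1, a trafficking gene of the list, was likewise at least 2.25-fold higher in DMEM on a dimmer probe set and 1.01-fold on the one read for it. MAML3, a Mastermind coactivator, read 32.2 in PIAS1 shRNA2 and 174 in control shRNA cells in DMEM and was under the floor in SCM, so the size of its difference is not known.

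Of 8 other genes that Notch can induce, the 6 above the floor in SCM and the 5 above it in DMEM were under 2-fold different between the shRNAs. HEY2 and HEYL, the paralogs of HEY1, were under the floor on all 4 arrays and give no ratio. HES2, a paralog of HES1, read 196 in PIAS1 shRNA2 and 274 in control shRNA cells in SCM and was under the floor in DMEM. MYC, a growth regulator, had log2 ratios of 0.25 in SCM and 0.24 in DMEM, CCND1, which encodes cyclin D1, 0.04 and -0.0034, and the stem cell factor SOX9 0.21 and 0.49. SNAI2, a repressor of epithelial genes, had the highest ratio of this group in SCM, with 2858 in PIAS1 shRNA2 and 1616 in control shRNA cells, 1.77-fold higher, and it read 7320 and 5299 in DMEM. These genes are induced by many other signals as well.

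**Figure D4:**
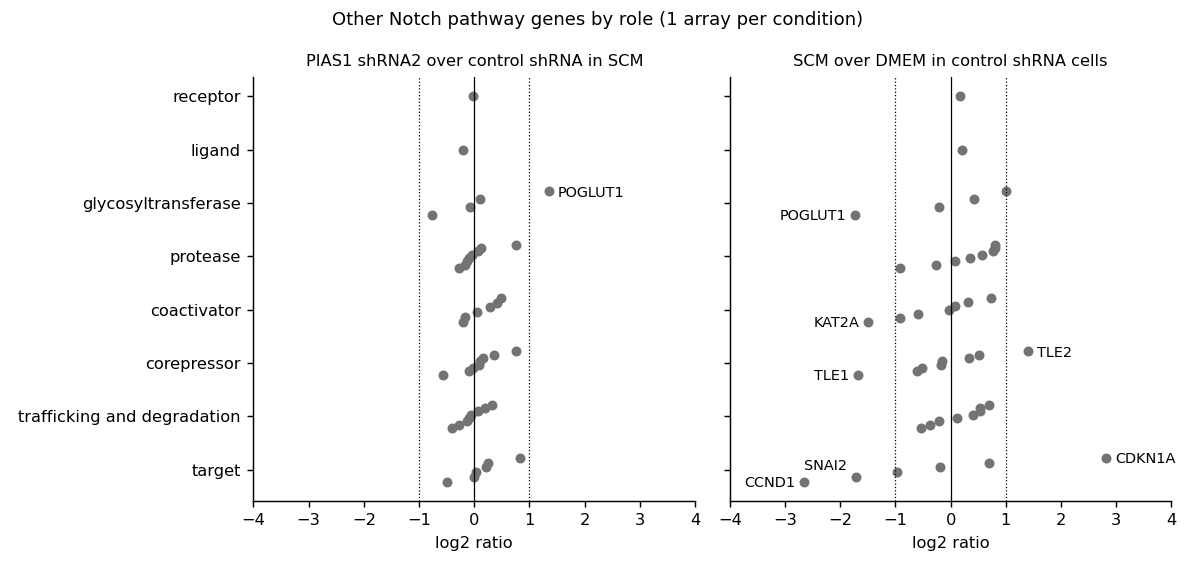
Log2 ratio (x axis) of each of the other Notch pathway genes above the floor, by role (y axis), for PIAS1 shRNA2 over control shRNA in SCM (left) and SCM over DMEM in control shRNA cells (right), 1 array per condition; points are genes and dotted lines mark 2-fold. POGLUT1 alone passes 2-fold on the left, while 7 genes do on the right.

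The medium comparison of the same list gave counts near or below the share over all genes. In PIAS1 shRNA2 cells 2 of 41 were higher in SCM by 2-fold or more and 3 lower, with a median of -0.01, against 11% and 10.4% of all genes. In control shRNA cells 2 of 43 were higher and 5 lower, with a median of 0.08, against 10.9% and 10.6%. CDKN1A, an inhibitor of cyclin-dependent kinases, was 5.59-fold higher in SCM in PIAS1 shRNA2 cells and 7.01-fold higher in control shRNA cells, with 16072 and 16066 in SCM against 2876 and 2291 in DMEM. CCND1 read 1887 in PIAS1 shRNA2 and 1837 in control shRNA cells in SCM against 11524 and 11550 in DMEM, with log2 ratios of -2.61 in PIAS1 shRNA2 and -2.65 in control shRNA cells. SNAI2 had -1.36 and -1.71, and the corepressor TLE1 had -1.31 and -1.67, in the same order of lines. On the probe sets read for the genes, 3 were past 2-fold in control shRNA cells but not in PIAS1 shRNA2 cells. POGLUT1 had -1.73, the acetyltransferase KAT2A -1.49, and TLE2 was at least 2.64-fold higher. Dimmer probe sets of some other genes of the list also passed 2-fold by medium and are not counted. ADAM17 was 2.24-fold higher in PIAS1 shRNA2 cells and 1.74-fold higher in control shRNA cells. Whether such ratios differ between the lines was not tested.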

How the data were processed

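The authors deposited MAS5 signal intensities from 1 Affymetrix array per condition; which MAS5 version and settings were used is not given in the sources used here. Titles name the knockdown as PIAS1 shRNA and the design text as PIAS1 shRNA2. MAS5 scales a whole array by 1 factor and subtracts mismatch probes, which leaves low signals noisy, hence the floor. With no replicates, the number of arrays limits the precision, and no test was run.

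The platform's gene table listed 19070 probe sets for exactly 1 gene and 1043 for several; 2164 are unnamed here. Entrez identifiers of 19058 matched the RefSeq table of GRCh38.p14, which changed 0 symbols. Genes with several probe sets were read from the brightest by mean log2 signal, giving 11963 genes. Background shares count genes above the floor of 170.1 on at least 1 of the compared arrays.

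The members and lists were chosen with earlier results of these data known. Named genes are all members, PIAS1, pathway genes at least 2-fold different in any comparison, up to 3 further bright genes per role and the 3 genes most like HEY1. HEY2, HEYL, SPEN, AAK1 and MAML3 fall outside this rule and were chosen after their values were seen. Cell type markers come from a list of their own. Alternatives were other floors, scalings and probe set rules. The code for ratios and counts was checked on simulated data. Python 3.11.15, NumPy 2.4.6, pandas 2.3.3 and matplotlib 3.10.9 were used.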

Additional observations from a re-analysis of the deposited data

Results flagged for a closer look

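MFNG, a Fringe glycosyltransferase, was past 1.5-fold in both media but with opposite signs on the probe set read for it. It read 199 in PIAS1 shRNA2 and 339 in control shRNA cells in SCM, and 271 and 103 in DMEM, so the log2 ratio between the shRNAs in SCM less that in DMEM was -1.44 with the floor applied. The control shRNA signal in DMEM was under the floor, so this value is a limit and not a measured difference, and it was not tested. Of these signals only that of control shRNA cells in SCM, 339, exceeded the stricter floor of 329. With that floor MFNG gives no ratio in DMEM, and the opposite signs are not seen. A dimmer MFNG probe set was under the floor on all arrays, and another exceeded it only in control shRNA cells in SCM. Neither gave a ratio in DMEM, so neither shows the opposite signs.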

How the results depend on the processing

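The 36 log2 ratios of the 9 genes were recomputed under 7 alternatives, and none of those at least 2-fold in size changed sign. Another floor can bring a ratio to 0 but cannot turn its sign, so the alternatives that changed only the floor could not show this. The counts of Notch genes at least 2-fold higher changed as follows. For SCM over DMEM in control shRNA cells the count was 2, and it was 1 with a stricter floor, the 95th percentile instead of the 75th (329), 0 with the floor at the array median (605), 1 with the mean of all probe sets of a gene and 4 at 1.5-fold; HEY1 was lost with each of the first 3 and NOTCH3 with the array median. Under the raised floors the ratios so lost were bounds or had both signals under the floor. In PIAS1 shRNA2 cells the count for SCM over DMEM was 3, and 2 with the array median as floor or the mean of probe sets. For PIAS1 shRNA2 over control shRNA the mean of probe sets gave 1 in SCM (HEY1) instead of 2, and 0 in DMEM instead of 1, where JAG1 had a log2 ratio of 0.95; its dimmest probe set is part of that mean. At 1.5-fold the count was 3 in SCM and 3 in DMEM, and with any probe set of a gene 3 in SCM. With probe sets ending in _x_at left out, an alternative chosen after seeing the data, JAG1 had a log2 ratio of 1.26 in SCM, which raised that count to 3, and 1.01 in DMEM. In DMEM the log2 ratio of HEY1 was 0 once the array median served as floor, since both signals were then under it. Scaling to a common median or quantile normalization changed none of these counts, but after quantile normalization the genes differed in control shRNA cells: HEY1 had 0.98 and JAG1 1.05, so that JAG1 took the place of HEY1. No alternative gave a Notch gene at least 2-fold lower, and the medians of the other pathway genes moved by less than the gap between probe sets of 1 gene. No paired analysis was possible because each condition has 1 array.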
